A study of Triticum aestivum with 12 samples.

Results

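Transcript levels of the sucrose synthase genes SUS1 and SUS2 were followed in developing grains of bread wheat, whose A, B and D subgenomes each carry a copy of both genes. The 6 genes were taken by their listed identifiers, 3 homeologs named SUS1 on the group 7 chromosomes and 3 named SUS2 on the group 2 chromosomes, out of 120744 features in the count table. The count table itself gives identifiers without names. RNA was sequenced from grains of the field-grown cultivars TAM111 and TAM112 collected 5 and 14 days after flowering (DAF, written as DAP in the sample labels), with 3 libraries for each cultivar and stage and 12 in all. Each library was made from poly-A RNA of several grains of similar size from 1 inflorescence, and the study sequenced the 3 samples of best quality per group. The labels give cultivar and stage as the differences between groups and name no treatment. Whether the inflorescences of a group came from separate plants was not given in the sources used here, and the p-values measure the spread between these samples.

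The libraries held 31916077 to 40464882 counts on genes, and all 6 genes passed the filter on low counts that left 65080 features for testing. The lowest count of any of them in any library was 86 and the highest was 58038. Transcripts of the high-molecular-weight glutenin subunits, storage proteins made in the starchy endosperm, were tracked as a marker of grain filling through 5 identifiers listed from background knowledge. Their summed level was 6781 to 14482 TPM (counts divided by gene length and scaled to the same total in every library) in TAM111 grains of 14 DAF, against 997 to 5201 TPM for TAM112. The earlier grains had 0.0630 to 0.469 TPM (TAM111) and 0 to 79.8 TPM (TAM112). Glutenin transcripts were thus abundant at the later stage and at most 79.8 TPM at the earlier one. A further endosperm marker was the summed level listed for granule-bound starch synthase I. In TAM111 it was 145 to 307 TPM at 5 DAF and 583 to 890 TPM at 14 DAF. In TAM112 it was 270 to 469 TPM at 5 DAF and 104 to 352 TPM at 14 DAF. Unlike glutenin, it was thus not raised at 14 DAF in TAM112. In whole grains, fewer cells of a type and less RNA per cell cannot be told apart.

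Sucrose synthase splits sucrose with UDP into fructose and UDP-glucose, and the reaction can run in both directions. In a filling cereal grain it stands at the entry of imported sucrose into metabolism, and UDP-glucose feeds cell wall polymers as well as, through ADP-glucose, starch. In maize, loss of the endosperm sucrose synthase Sh1 gives shrunken kernels with less starch.

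All 6 genes lie on the minus strand of the IWGSC RefSeq v1.0 assembly. The SUS1 homeologs are TraesCS7A02G158900 (7A, 115203634 to 115208689), TraesCS7B02G063400 (7B, 68344037 to 68349270) and TraesCS7D02G159800 (7D, 109170863 to 109176000). The SUS2 homeologs are TraesCS2A02G168200 (2A, 121141338 to 121145857), TraesCS2B02G194200 (2B, 171030105 to 171036053) and TraesCS2D02G175600 (2D, 119066592 to 119072213). The annotated exons covered 2496 to 3166 bases per gene. Homeologs have similar sequences, and the treatment of reads that map to several places was not given in the sources used here, so the split of reads among the A, B and D copies is uncertain to that extent. The reference is the cultivar Chinese Spring, not TAM111 or TAM112.

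The 2 libraries numbered 3 at 5 DAF, one of each cultivar, stood apart for SUS2 and not for SUS1. Library values are given here as CPM, counts brought to the same library total with trimmed-mean factors, in the order of replicates 1, 2 and 3. SUS2 on 2D had 210, 136 and 2.42 CPM in TAM111 and 564, 714 and 21.7 CPM in TAM112 at 5 DAF. Replicate 3 was thus at least 25.9-fold lower than both other libraries of its group in either cultivar. For SUS2 on 2A the 5 DAF libraries held 235, 158 and 23.3 CPM in TAM111 and 564, 643 and 52.9 CPM in TAM112. For SUS2 on 2B they held 285, 190 and 36.8 CPM in TAM111 and 530, 629 and 82.3 CPM in TAM112. The drop in replicate 3 against the lower of the other libraries was 6.79-fold and 10.7-fold for 2A and 5.16-fold and 6.43-fold for 2B, in TAM111 and TAM112 respectively. Drops were taken from log2 CPM with about 2 counts added.

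A drop of 4-fold or more in both of these libraries, a limit chosen after the values were seen, was found for 268 of 18830 features with a mean of at least 10 CPM (1.42%). Among 32 tested genes listed for starch synthesis and sucrose transport, 4 met it, namely the 3 listed for starch branching enzyme IIb and 1 listed for the sucrose transporter SUT1. In the same libraries the summed glutenin level was the lowest of its group, 0.0630 TPM in TAM111 and 0 TPM in TAM112, with all 5 genes at 0 in the latter. The summed level listed for granule-bound starch synthase I was 307, 145 and 252 TPM in TAM111 and 469, 402 and 270 TPM in TAM112. For that marker replicate 3 was the lowest in TAM112 and not in TAM111. What the glutenin level or these libraries contribute to the SUS2 values was not tested. The tests on SUS2 are therefore given with all libraries and, as an alternative chosen after the data were seen, without both of them. Both libraries were picked by their SUS2 values, so the SUS2 calls and adjusted p-values without them are a description and do not count as tests.

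At 14 DAF the SUS2 values of TAM111 lay in a higher range. SUS2 on 2A had 1384, 2104 and 1282 CPM in TAM111 and 245, 186 and 585 CPM in TAM112. SUS2 on 2B had 772, 1196 and 752 CPM in TAM111 and 187, 135 and 432 CPM in TAM112. SUS2 on 2D had 1023, 1479 and 937 CPM in TAM111 and 239, 182 and 493 CPM in TAM112. Each TAM111 library was above each TAM112 library for all 3 homeologs, and 55.9% of all features had cultivars that did not overlap at 14 DAF. For the SUS2 homeologs replicate 3 was the highest of the TAM112 libraries. That library also held the most glutenin transcripts of its group, 5201 TPM against 997 and 1060 TPM in replicates 1 and 2.

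The SUS1 homeologs varied over a narrower range. SUS1 on 7A had 293, 211 and 178 CPM in TAM111 and 215, 239 and 281 CPM in TAM112 at 5 DAF, and 103, 178 and 100 CPM in TAM111 and 96.8, 97.2 and 131 CPM in TAM112 at 14 DAF. SUS1 on 7D had 467, 373 and 310 CPM in TAM111 and 277, 280 and 348 CPM in TAM112 at 5 DAF, and 152, 311 and 135 CPM and 124, 125 and 162 CPM at 14 DAF. Both were lower at 14 DAF in every TAM112 library, while in TAM111 replicate 2 of 14 DAF reached the range of 5 DAF. In TAM112, 55.2% of all features had stages that did not overlap. SUS1 on 7B had 229, 183 and 173 CPM in TAM111 and 186, 207 and 256 CPM in TAM112 at 5 DAF, and 155, 324 and 138 CPM and 66.6, 53.0 and 124 CPM at 14 DAF. The TAM111 stages overlapped for 7B, and in CPM the TAM112 libraries at 14 DAF were the lowest of all 12.

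**Figure D1:**
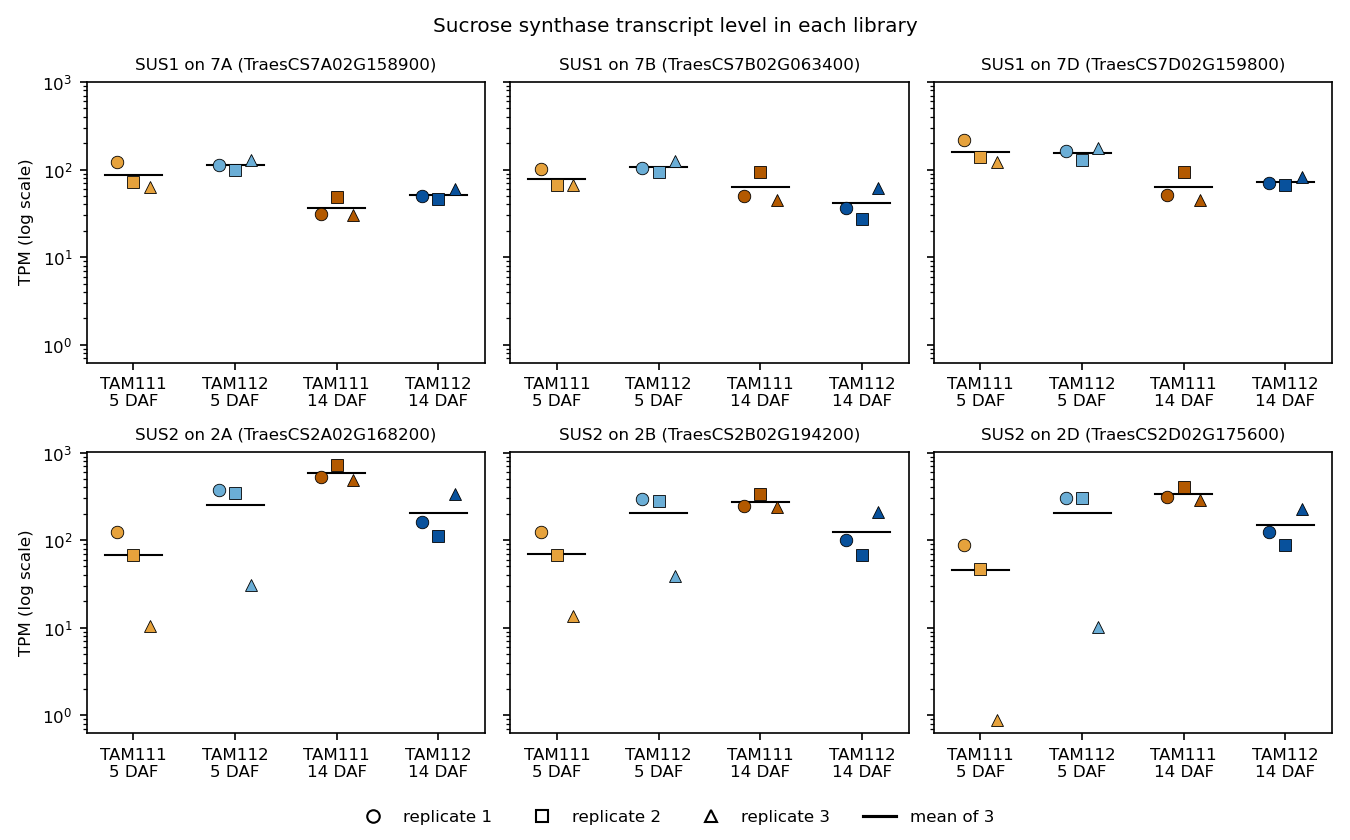
Level of each sucrose synthase gene in TPM (log axis) in 12 libraries, 3 per cultivar and stage, with replicates 1, 2 and 3 as circles, squares and triangles and the group mean as a line. The SUS2 homeologs at 5 DAF are lowest in replicate 3 of both cultivars, down to 0.879 TPM for 2D in TAM111, while no SUS1 homeolog falls below 27.1 TPM.

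On the TPM scale, which allows genes to be compared, the most abundant homeolog changed with cultivar and stage. SUS2 on 2A in TAM111 at 14 DAF was the highest of the 6 genes in any group, with a mean of 581 ± 125 TPM (SD, n = 3), and it ranked 126 to 197 among all features in those libraries. Its means were 67.6 ± 56.8 TPM in TAM111 at 5 DAF, 249 ± 190 TPM in TAM112 at 5 DAF and 204 ± 120 TPM in TAM112 at 14 DAF (SD, n = 3). The 3 lower groups overlapped one another, and only TAM111 at 14 DAF stood above all other groups. SUS2 on 2B (means 68.6, 274, 202 and 125 TPM) and 2D (45.4, 336, 205 and 147 TPM, for TAM111 at 5 and 14 DAF and TAM112 at 5 and 14 DAF) had the same order of group means, but in TPM the lowest TAM111 library at 14 DAF did not exceed the highest TAM112 library at 5 DAF for either.

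SUS1 was led by the D copy at 5 DAF, with 159 ± 49.4 TPM in TAM111 and 156 ± 23.6 TPM in TAM112 (SD, n = 3). At 14 DAF the 7D copy had 63.2 ± 26.5 and 72.9 ± 8.52 TPM. The 7B copy had 63.1 ± 27.2 TPM in TAM111 at 14 DAF, which equals the D copy there within the spread, and 41.6 ± 17.5 TPM in TAM112. The 7A copy ran from 36.5 ± 10.3 TPM in TAM111 at 14 DAF to 114 ± 14.3 TPM in TAM112 at 5 DAF. TPM values at 14 DAF share their total with the storage protein transcripts, so changes between stages were tested on the scaled counts.

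Summed over homeologs, SUS1 had 323 ± 102 TPM in TAM111 and 377 ± 53.7 TPM in TAM112 at 5 DAF, and 163 ± 64.0 and 166 ± 33.3 TPM at 14 DAF (SD, n = 3). Summed SUS2 had 182 ± 156 and 656 ± 500 TPM at 5 DAF, and 1190 ± 246 and 476 ± 267 TPM at 14 DAF. SUS1 therefore made up 56.6, 60.4 and 90.9% of the summed TPM of the 6 genes in the TAM111 libraries at 5 DAF and 10.8, 13.8 and 10.6% at 14 DAF. The stages did not overlap in TAM111, and SUS1 was the larger part in each library at 5 DAF and SUS2 in each at 14 DAF. In TAM112 the SUS1 part was 28.1, 25.9 and 84.3% at 5 DAF and 28.9, 34.3 and 20.8% at 14 DAF. Apart from replicate 3 at 5 DAF, SUS2 was the larger part in the TAM112 libraries of both stages, and the stages overlapped. Averaged over cultivars, the stage difference in the SUS1 part did not pass its planned test.

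**Figure D2:**
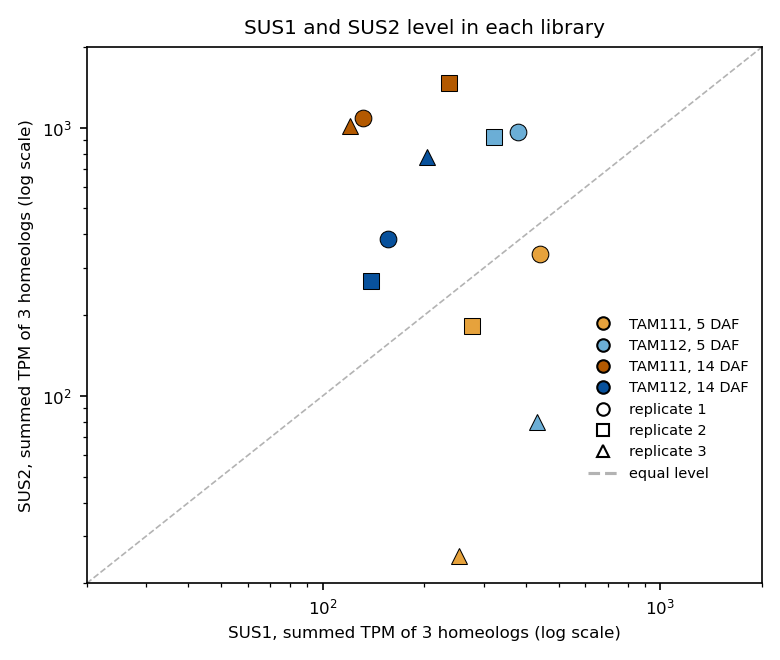
Summed TPM of the 3 SUS1 homeologs against the summed TPM of the 3 SUS2 homeologs in each of 12 libraries (both axes log, dashed line at equal level; colours give cultivar and stage, symbols the replicate). All libraries below the line are from 5 DAF, the 3 of TAM111 and replicate 3 of TAM112.

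Differences were tested with edgeR's quasi-likelihood test over all 65080 features with Benjamini-Hochberg adjustment, and a gene was called where the log2 fold change exceeded 1 in either direction and the adjusted p was below 0.01. The first comparison asked whether the cultivars differed at 5 DAF. None of the 6 genes was called, by edgeR or by the DESeq2 Wald test, against 3.39% of all features in edgeR and 5.77% in DESeq2. None had an unadjusted p below 0.05 in edgeR (17452 of all 65080 features did). No gene had groups that did not overlap, against 25.7% of all features. The SUS2 means were nevertheless higher in TAM112, with log2 fold changes of 1.597 for 2A (95% interval -0.27 to 3.47, adjusted p = 0.256), 1.28 for 2B (-0.37 to 2.93, adjusted p = 0.303) and 1.90 for 2D (-0.69 to 4.49, adjusted p = 0.328). Each interval included 0.

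Same-numbered libraries of the cultivars deviated together at 5 DAF, so a fit that blocks on the number is given beside this result. The labels do not say what a number marks, and the pairing was read from these same values. With 3 libraries per cultivar, the block also leaves little from which to estimate the spread. Calls of the blocked fit are therefore a description. The ratio of TAM112 to TAM111 within a number was 2.40, 4.06 and 2.27 for SUS2 on 2A. For 2B it was 1.86, 3.31 and 2.24, and for 2D it was 2.69, 5.26 and 8.96. All 3 SUS2 homeologs were thus higher in TAM112 in 3 of 3 numbered pairs, replicate 3 included. The share of all features with the same sign in 3 of 3 pairs was not computed. The homeologs also followed each other across libraries, so these ratios are a description. With the block, in a fit of the 5 DAF libraries alone, edgeR's quasi-likelihood test called all 3 SUS2 homeologs higher in TAM112, with log2 fold changes of 1.49 for 2A (adjusted p = 0.00288), 1.26 for 2B (adjusted p = 0.00495) and 2.29 for 2D (adjusted p = 0.00308), against 3.94% of all features. The same libraries fitted alone without the block gave no call among the 6 genes, against 2.25% of all features. Without both libraries numbered 3 and without the block, none of the 6 genes was called (2.93% of all features), and the smallest adjusted p was 0.0324, for 2D.

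For SUS1 at 5 DAF the differences were smaller and their intervals narrower. The log2 fold changes for TAM112 against TAM111 were 0.11 for 7A (95% interval -0.47 to 0.68), 0.15 for 7B (-0.63 to 0.93) and -0.35 for 7D (-0.997 to 0.30). Adjusted p-values in the same edgeR test were between 0.486 and 0.830. With the block, none of the SUS1 homeologs was called.

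The second comparison asked whether the cultivars differed at 14 DAF. SUS2 was lower in TAM112 by means of 339 against 1590 CPM for 2A, 251 against 906 CPM for 2B and 305 against 1147 CPM for 2D. The log2 fold changes were -2.23 (SE 0.876, adjusted p = 0.0654), -1.85 (SE 0.769, adjusted p = 0.0793) and -1.91 (SE 1.19, adjusted p = 0.227) in edgeR's quasi-likelihood test, so none was called. None of the 6 genes was called in either direction, against 14.5% of all features, of which 7.45% were called lower. In CPM the groups did not overlap for 4 of 6 genes, the SUS2 homeologs and SUS1 on 7B, all lower in TAM112, against 55.9% of all features. In TPM the groups did overlap for SUS1 on 7B. TAM112 replicate 3 had 61.1 TPM there, against 50.1 and 44.9 TPM in TAM111 replicates 1 and 3. Of the 6 genes, 3 had an unadjusted p below 0.05 in edgeR, as had 30111 of all 65080 features. The DESeq2 Wald test called 1, SUS1 on 7B, against 19.1% of all features.

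These tests shared their estimate of spread with the 5 DAF libraries. Without both libraries numbered 3 at 5 DAF, the fold changes at 14 DAF stayed at -2.23, -1.85 and -1.91, and all 3 SUS2 homeologs were called lower in TAM112 (adjusted p = 0.00195, 0.00460 and 0.00260), against 18.2% of all features in that fit. SUS2 at 14 DAF was thus lower in TAM112 by 4.69-fold, 3.61-fold and 3.76-fold on the fitted scale, and its call rested on how the 5 DAF libraries were treated. The libraries left out were picked by their SUS2 values, so these calls do not count as a test.

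SUS1 on 7B was the SUS1 homeolog with the largest cultivar difference at 14 DAF, 81.3 ± 37.8 CPM in TAM112 against 206 ± 103 CPM in TAM111 (SD, n = 3). Its log2 fold change was -1.34 (SE 0.363, adjusted p = 0.0140 in edgeR's quasi-likelihood test), above the 0.01 limit. Scaling by library size alone, which moved the median of all features to 0.45, gave -0.84 (adjusted p = 0.0552 in the same test). Without replicate 3 of TAM112 at 14 DAF it was -1.79 (adjusted p = 0.00358) and passed, the only 1 of 12 fits without a single library that did. Over these fits the value ran to -0.84, without replicate 2 of TAM111 at 14 DAF (adjusted p = 0.0804). The 7A and 7D copies had log2 fold changes of -0.23 (95% interval -0.80 to 0.35) and -0.54 (-1.19 to 0.11), and their groups overlapped.

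The third comparison asked how each gene differed between 14 and 5 DAF within TAM111. SUS2 on 2A rose from 139 ± 107 to 1590 ± 448 CPM (SD, n = 3), a log2 fold change of 3.52 (SE 0.925, adjusted p = 0.00864 in edgeR's quasi-likelihood test). It was the only 1 of 6 genes called, against 24% of all features called in either direction and 13.4% called higher. SUS2 on 2B had a log2 fold change of 2.41 (SE 0.785, adjusted p = 0.0251) and SUS2 on 2D one of 3.31 (SE 1.26, adjusted p = 0.0484). The stages did not overlap for 3 of 6 genes, the SUS2 homeologs, against 56.1% of all features. For these every 14 DAF library was higher.

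Without both 5 DAF libraries numbered 3, all 3 SUS2 homeologs were called higher at 14 DAF in TAM111, with smaller log2 fold changes of 3.01, 1.93 and 2.72 (adjusted p = 0.000841, 0.00744 and 0.000804), against 22.3% of all features. As these libraries were picked by their SUS2 values, those calls do not count as a test. The call of 2A was sensitive to single libraries, since in edgeR's quasi-likelihood test it held in 2 of 12 fits that left out 1 library each. It held without replicate 3 of TAM112 at 5 DAF (adjusted p = 0.00189) and without replicate 3 of TAM112 at 14 DAF (adjusted p = 0.00809). Leaving out any one of the other libraries gave adjusted p-values from 0.01005 to 0.0303, with log2 fold changes from 3.01 to 4.10 over all 12 fits. Without replicate 3 of TAM112 at 5 DAF, SUS2 on 2B was called as well (adjusted p = 0.00844).

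Within TAM111, SUS1 on 7A and 7D had lower means at 14 DAF, with log2 fold changes of -0.84 (adjusted p = 0.0221) and -0.94 (adjusted p = 0.0230) in edgeR's quasi-likelihood test. Both fell short of both limits. Replicate 2 at 14 DAF was the highest library of its group for all 3 SUS1 homeologs, and without it the values were -1.19 (adjusted p = 0.00513) and -1.44 (adjusted p = 0.00149) and both genes were called. This was the only 1 of 12 fits without a single library that called either, and the values reached -0.64 for 7A and -0.74 for 7D, with adjusted p-values up to 0.0855 and 0.0891. SUS1 on 7B had a log2 fold change of 0.08 (95% interval -0.70 to 0.86) with all libraries and -0.43 without that library. Scaling by library size alone, which moved the median of all features to -0.18, gave -1.10 for 7A and -1.21 for 7D, both called, -0.19 for 7B, and left 2A uncalled (adjusted p = 0.0104). Relative to that median, the 3 SUS1 values were close to those with trimmed-mean scaling.

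The fourth comparison made the same contrast of stages within TAM112, where SUS1 and not SUS2 was called. SUS1 on 7A fell from 245 ± 33.4 to 108 ± 19.7 CPM (SD, n = 3), a log2 fold change of -1.18 (SE 0.268, adjusted p = 0.00434 in edgeR's quasi-likelihood test). SUS1 on 7B fell from 216 ± 35.9 to 81.3 ± 37.8 CPM, a log2 fold change of -1.41 (SE 0.364, adjusted p = 0.00861). SUS1 on 7D went from 302 ± 40.4 to 137 ± 21.9 CPM with a log2 fold change of -1.14 and an adjusted p of 0.01002, just above the limit. The 2 calls among 6 genes stood against 21% of all features called in either direction and 9.27% called lower. The stages did not overlap for 3 of 6 genes, the SUS1 homeologs, against 55.2% of all features.

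The SUS1 calls in TAM112 also depended on single libraries, although the direction did not, with log2 fold changes from -1.88 to -1.03 over the 3 homeologs and 12 fits of edgeR's quasi-likelihood test that left out 1 library each. SUS1 on 7A was called in 9 of 12 such fits. It was lost without replicate 3 at 5 DAF (adjusted p = 0.0140), replicate 1 at 14 DAF (adjusted p = 0.0220) or replicate 2 at 14 DAF of TAM112 (adjusted p = 0.0227). SUS1 on 7B was called in 3 of 12, those without replicate 2 or 3 of TAM111 at 14 DAF or replicate 3 of TAM112 at 14 DAF (adjusted p = 0.00381, 0.00882 and 0.00201). Leaving out any other library lost that call, with adjusted p-values from 0.0104 to 0.0402. SUS1 on 7D was called without replicate 2 or 3 of TAM111 at 14 DAF (adjusted p = 0.00202 and 0.00799). When both 5 DAF libraries numbered 3 were left out none was called, against 19.9% of all features, and the adjusted p-values of SUS1 were 0.0116, 0.0262 and 0.0279.

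SUS2 was not called between stages in TAM112. The log2 fold changes were -0.31 for 2A (95% interval -2.14 to 1.52), -0.72 for 2B (-2.35 to 0.91) and -0.51 for 2D (-3.02 to 2.00), so changes of several fold in either direction lay within the intervals. Leaving out both 5 DAF libraries numbered 3 gave -0.84, -1.21 and -1.08 (adjusted p = 0.149, 0.0448 and 0.0524 in edgeR's quasi-likelihood test).

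**Figure D3:**
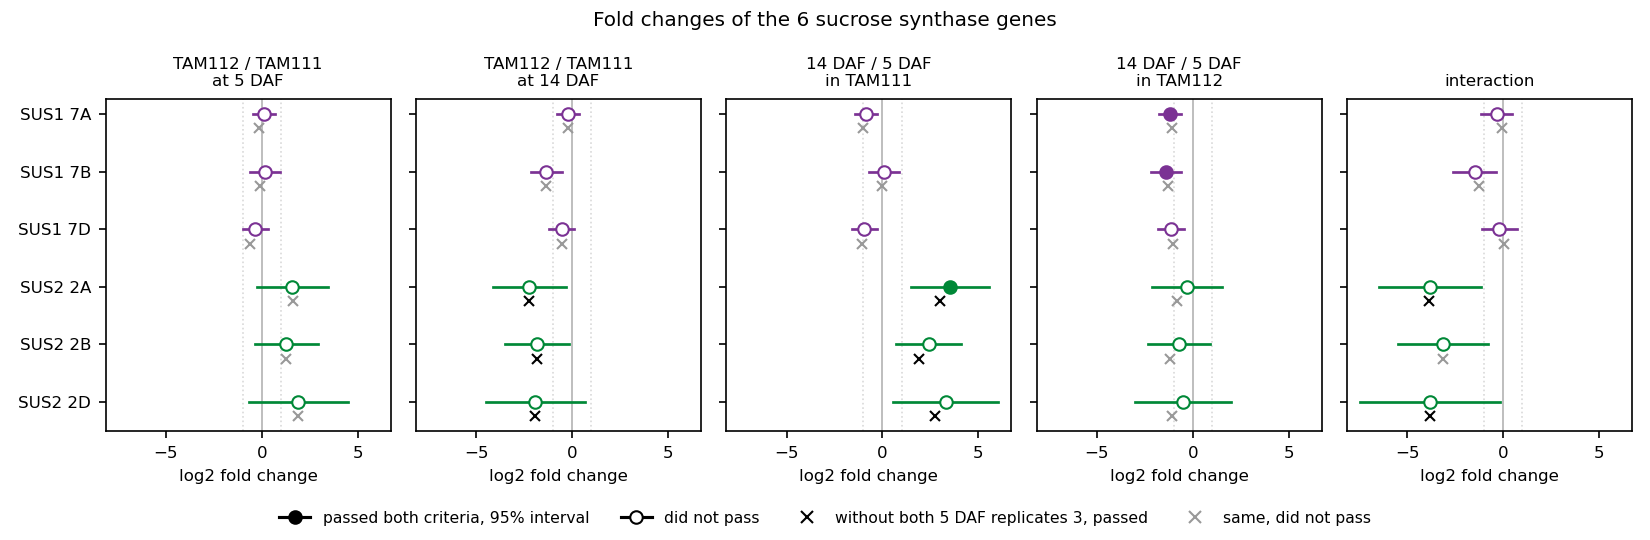
Log2 fold changes of the 6 genes in 4 comparisons and in the interaction, with 95% intervals as lines (purple, SUS1; green, SUS2; filled circles passed both criteria), and as crosses the values without both 5 DAF libraries numbered 3 (black where they passed). SUS2 values are negative between cultivars at 14 DAF and positive between stages in TAM111, and only the marked members passed.

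The interaction tested whether the change between stages differed between cultivars. For SUS2 the change in TAM112 minus that in TAM111 was -3.83 for 2A (SE 1.23, adjusted p = 0.0889), -3.13 for 2B (SE 1.08, adjusted p = 0.109) and -3.81 for 2D (SE 1.68, adjusted p = 0.197) on the log2 scale in edgeR's quasi-likelihood test. For SUS1 it was -0.34 for 7A, -1.49 for 7B and -0.20 for 7D. None of the 6 genes was called, by edgeR or by the DESeq2 Wald test, against 0.309% of all features in edgeR and 4.92% in DESeq2. Of them, 4 had an unadjusted p below 0.05 in edgeR, as had 15160 of all 65080 features. Without both 5 DAF libraries numbered 3, SUS2 on 2A (-3.85, adjusted p = 0.00867) and 2D (-3.80, adjusted p = 0.00620) were called and 2B was not (-3.14, adjusted p = 0.0177), against 1.32% of all features. With all libraries, no stage response that differed between cultivars was called for SUS2. The calls of 2A and 2D came in that alternative, whose left-out libraries were picked by their SUS2 values, so they do not count as a test. The calls of SUS1 on 7A and 7B in TAM112 and not in TAM111 do not show a difference between the cultivars, since the interaction of neither passed (adjusted p = 0.640 and 0.106).

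The replicates differed in how far they spread. The biological coefficient of variation fitted by edgeR was 0.249 to 0.321 for SUS1 and 0.618 to 0.908 for SUS2, against 0.300 for all features in common. Ranges between libraries were taken from log2 CPM with about 2 counts added, which shrinks the ratios of low values slightly. Within TAM111 at 5 DAF the highest library then exceeded the lowest 84.5-fold for SUS2 on 2D. This was a wider range than in 99.7% of 18830 features with at least 10 CPM on average. In TAM111 at 14 DAF the same gene spread 1.58-fold. SUS2 libraries of the same nominal age thus spread further at 5 DAF, 7.63-fold to 84.5-fold, than at 14 DAF, 1.58-fold to 3.20-fold. The wide range at 5 DAF lay with replicate 3, the lowest SUS2 library of both cultivars. For 2D in TAM111 it held 2.42 CPM, against 210 and 136 CPM in replicates 1 and 2. In TAM111 at 14 DAF the SUS1 homeologs spread further than SUS2, 1.78-fold to 2.34-fold against 1.58-fold to 1.64-fold.

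Homeologs of a triad followed each other across the libraries. Over the 12 libraries, Pearson's r of log2 CPM between homeologs was 0.954 to 0.984 for the 3 SUS2 pairs and 0.766 to 0.949 for the 3 SUS1 pairs, and it was -0.335 to 0.240 for the 9 pairs of a SUS1 with a SUS2 gene. The points fall into cultivar and stage groups, share their libraries and may share reads, so these values are a description.

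Shares of the homeologs in the summed TPM of their triad were compared with two-sided exact permutation tests within strata, 14 tests adjusted together, where 0.005 was the smallest p that 400 arrangements allow. The A copy of SUS2 held 36.8, 37.3 and 41.9% of SUS2 in TAM111 at 5 DAF and 48.7, 49.2 and 48.3% at 14 DAF. In TAM112 it held 38.8, 37.1 and 38.2% at 5 DAF and 41.5, 41.9 and 43.8% at 14 DAF. All 14 DAF libraries were above all 5 DAF libraries of their cultivar, by 7.21 percentage points on average (exact permutation p = 0.005, adjusted p = 0.0233). The B copy of SUS2 had a lower share at 14 DAF by an average difference of -15.1 points (exact permutation p = 0.005, adjusted p = 0.0233).

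The B share of SUS2 was 36.9, 37.0 and 54.7% in TAM111 and 30.1, 29.97 and 49.2% in TAM112 at 5 DAF. At 14 DAF it was 22.5, 23.1 and 23.4% in TAM111 and 26.2, 25.2 and 26.7% in TAM112. The high values of replicate 3 went with a D share of 3.49% in TAM111 and 12.6% in TAM112, against 25.6 to 32.9% in the other 5 DAF libraries. The low SUS2 level in those libraries was thus most pronounced for the D copy. Without both of them the average differences were 8.06 points for A and -9.002 points for B, with an exact permutation p of 0.01 for each (adjusted p = 0.0583), the smallest that the remaining 100 arrangements allow. Leaving out any one library of TAM112 at 14 DAF also ended the call for B (adjusted p = 0.07 for each in the exact permutation test, average differences -15.3 to -14.9 points).

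In SUS1 the A copy held a larger share in TAM112 than in TAM111. It was 27.8, 25.7 and 25.1% in TAM111 and 29.9, 31.0 and 29.9% in TAM112 at 5 DAF, and 23.4, 20.4 and 25.2% against 31.7, 33.2 and 29.5% at 14 DAF. The cultivars did not overlap at either stage, and the average difference was 6.24 points (exact permutation p = 0.005, adjusted p = 0.0233). After both 5 DAF libraries numbered 3 were left out the difference was 6.06 points (exact permutation p = 0.0167, adjusted p = 0.0583), where 0.0167 is the smallest p that the remaining 120 arrangements allow.

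The B share of SUS1 in TAM111 was 24.5 ± 1.62% at 5 DAF and 38.4 ± 1.36% at 14 DAF (SD, n = 3), without overlap. In TAM112 it was 28.5 ± 0.792% and 24.3 ± 5.34%, and the stages overlapped. The D share was 49.3 ± 0.973% and 38.6 ± 1.04% in TAM111, without overlap, and 41.2 ± 1.15% and 44.2 ± 3.48% in TAM112. Averaged over cultivars, neither difference between stages passed the test (exact permutation adjusted p = 0.257 for both).

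**Figure D4:**
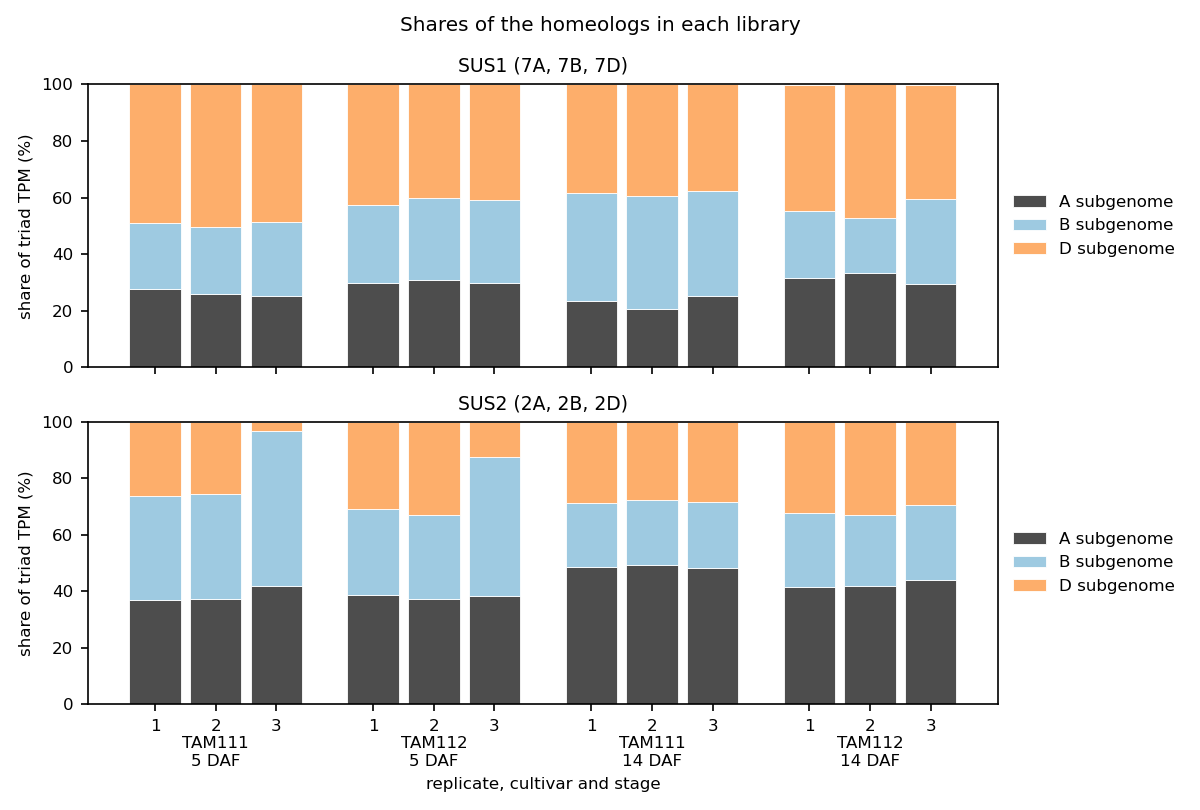
Stacked shares (percent of summed TPM) of the A, B and D homeologs of SUS1 and SUS2 in each of 12 libraries, 3 per cultivar and stage. The D share of SUS2 is 3.49% and 12.6% in replicate 3 of TAM111 and TAM112 at 5 DAF, and the A share of SUS2 is highest in TAM111 at 14 DAF (48.3 to 49.2%).

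The sucrose synthases were set beside 33 identifiers listed for starch synthesis and sucrose transport. The list was written from background knowledge, no annotation at hand pairs these identifiers with names, and 1 of them, with no reads in any library, was not tested, which leaves 32. At 5 DAF none of the 32 was called between cultivars, against 3.39% of all features. Their median log2 fold change was 0.62, against 0.02 over all features. At 14 DAF 18 of 32 were called lower in TAM112 and none higher, against 7.45% and 7.02% of all features. Their median was -1.87, against -0.01 over all features. The SUS2 values were -2.23 to -1.85 in the same comparison and those of SUS1 -1.34 to -0.23.

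Between stages in TAM111, 17 of 32 were called higher and none lower, against 13.4% and 10.6% of all features. Their median log2 fold change was 1.90, against 0.04 over all features. The 3 genes listed for starch branching enzyme IIb, which adds branches to amylopectin in the endosperm, had values of 4.15 to 5.15 and 2 were called. Those listed for starch synthase IIIa, which lengthens amylopectin chains, had 3.32 to 4.64 and all 3 were called. The SUS2 values of 2.41 to 3.52 lay above the median of the list. In TAM112, 3 of 32 were called lower between stages, against 9.27% of all features. All 3 were listed for starch synthase IIa, and the median of the 32 was -0.50. In the interaction none of the 32 was called, against 0.309% of all features. Their median there was -2.76, against -0.02 over all features. These comparisons share libraries, so the values stand side by side as a description.

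**Figure D5:**
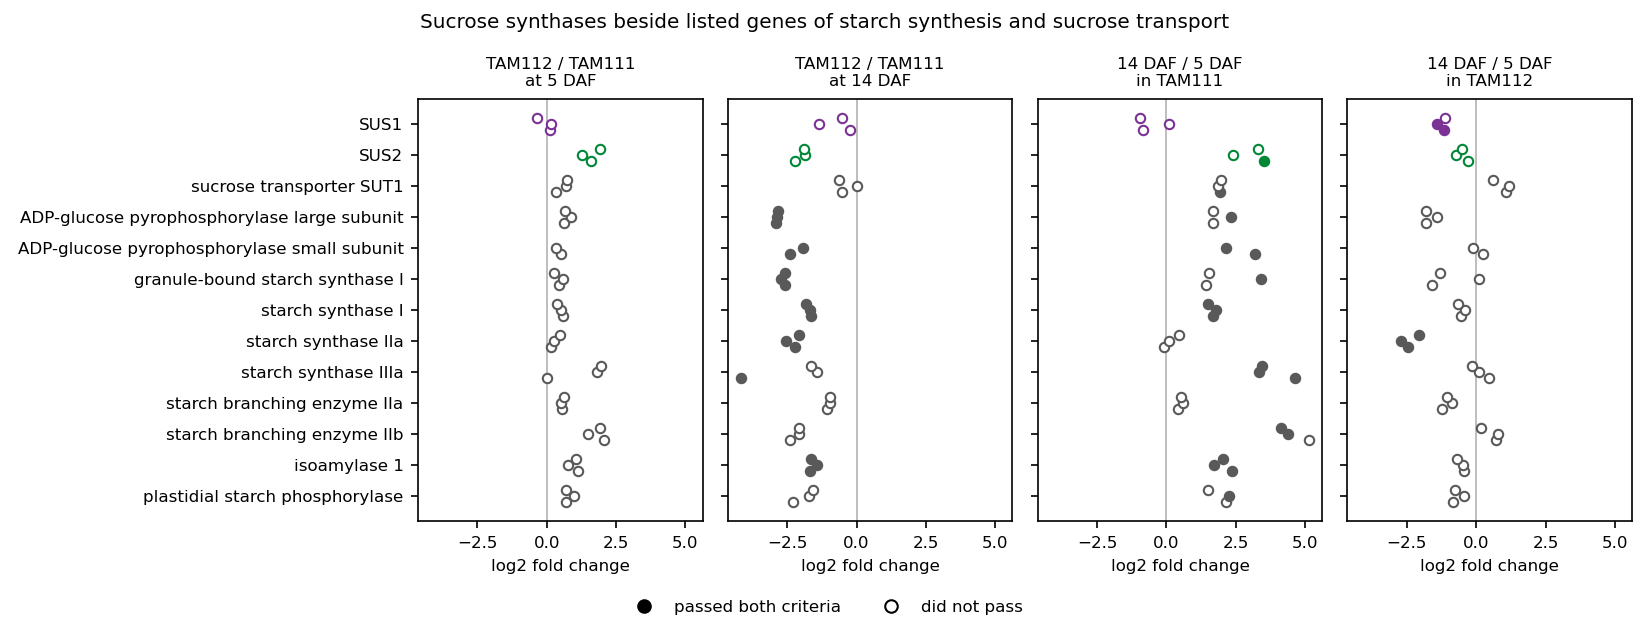
Log2 fold changes of SUS1 (purple), SUS2 (green) and 32 genes listed from background knowledge for sucrose transport and starch synthesis (grey) in 4 comparisons, with filled circles where both criteria were passed. At 14 DAF 18 of the 32 listed genes were called lower in TAM112 (7.45% of all features). In TAM111 17 were called higher at 14 DAF than at 5 DAF (13.4% of all features).

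Features with the most similar pattern were found by Pearson's r of log2 CPM with the summed counts of each triad over 12 libraries, among 18824 other features with a mean of at least 10 CPM. For SUS1 these were TraesCS2B02G591300 (r = 0.958), TraesCS6B02G005400 (r = 0.957) and TraesCS1B02G176200 (r = 0.953). For SUS2 they were TraesCS1B02G413600 (r = 0.985), TraesCS7B02G409500 (r = 0.982) and TraesCS7D02G362000 (r = 0.981). In all, 170 features had r above 0.9 with SUS1 and 218 with SUS2. TraesCS1B02G413600 had 4.10 ± 3.68 CPM in TAM111 and 9.004 ± 7.48 CPM in TAM112 at 5 DAF, with 57.6 ± 12.9 CPM in TAM111 and 9.31 ± 9.42 CPM in TAM112 at 14 DAF (SD, n = 3), and so shared with SUS2 its peak in TAM111 at 14 DAF.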

How the data were processed

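Wheat grain RNA of 12 samples was measured by paired-end sequencing of directional poly-A libraries. The authors trimmed the reads, aligned them to IWGSC RefSeq v1.0 using HISAT2 and deposited raw read counts per gene from featureCounts (annotation v1.1), with gene lengths; the strand and multi-mapping settings were not given in the sources used here. Groups were taken from the sample titles. From the counts, edgeR 4.0.16 (R 4.3.3) was run with its filter on low counts, trimmed-mean (TMM) factors of 0.767 to 1.19 and 1 coefficient per cultivar and stage over all 12 libraries, with Benjamini-Hochberg adjustment over 65080 features; a call needed an absolute log2 fold change above 1 and an adjusted p below 0.01. Standard errors were derived from the fold change and F. TPM and homeolog shares were computed from counts and lengths, and shares were tested by exact permutation (Python 3.11.15). The tests were checked on simulated data. All 6 genes are named, and the 3 features most like each triad. The members, lists and tests were chosen with earlier results of these data known. Marker lists for green layers, embryo and aleurone were not used here, since no product names were at hand.

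Replicates of a group differed beyond counting noise (over 12 pairs, chi-square divided by its degrees of freedom was 13.6 to 48.9). Same-numbered libraries of the cultivars deviated together at 5 DAF, with correlations of 0.365, 0.340 and 0.528. The main test did not pair them, and a fit blocked on the number is given beside it. The pairing was read from the values, as the labels do not say what a number marks. In the other comparisons the correlations were -0.283 to 0.107. Alternatives were the adjusted p limit, scaling, filter, glmTreat, DESeq2 1.42.0, a replicate block, separate fits, single libraries left out and, chosen after the data were seen, both 5 DAF libraries numbered 3 left out.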

Additional observations from a re-analysis of the deposited data

Results flagged for a closer look

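The cultivar difference in the B and D shares of SUS1 had opposite signs at the 2 stages, without overlap between the cultivars at either stage. The A share (7A) kept its sign, with 4.02 percentage points at 5 DAF and 8.45 points at 14 DAF. The B share (7B) was higher in TAM112 than in TAM111 by 4.04 percentage points at 5 DAF and differed by -14.1 points at 14 DAF. The D share (7D) differed by -8.06 points at 5 DAF and by 5.68 points at 14 DAF. The change of sign itself was not tested.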

How the results depend on the processing

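The number of the 6 genes called moved under several settings, and beside the construction of each setting the cause was not tested. With the replicate block, fitted to the groups compared only, the calls were 3 at 5 DAF, 2 between stages in TAM111 and 0 between stages in TAM112 (3.94%, 21.4% and 9.44% of all features); it changed no other count of calls, and outside 5 DAF the libraries share only a number. Between cultivars at 14 DAF, where none was called, 1 gene was called at an adjusted p under 0.05 (22.2% of all features), 1 with at least 10 counts in every library (15.6%), 2 when only the groups compared were fitted (19.4%) and 1 by the DESeq2 Wald test (19.1%). Between stages in TAM111, 3 genes were called at an adjusted p under 0.05 (31% of all features), 2 with library sizes alone (25.5%) and 0 by glmTreat (10.2%). In TAM112, against 2 genes, 0 were called by glmTreat (7.02%) and all 3 SUS1 genes at an adjusted p under 0.05, with upper-quartile factors, library sizes alone, no filter or 10 counts in every library, and by the DESeq2 Wald test, while fitting only the groups compared called 7A and 7D and not 7B. Without both 5 DAF libraries numbered 3, the calls were 3 between cultivars at 14 DAF, 3 and 0 between stages in TAM111 and TAM112, 2 in the interaction, and 0 each among the shares by stage and by cultivar, where the p-values of the 3 shares called with all libraries were the smallest that the remaining arrangements allow. Leaving out 1 library at a time gave 0 to 1 calls between cultivars at 14 DAF, 0 to 2 between stages in TAM111, 0 to 3 in TAM112, and 1 to 4 of 7 shares by stage against 2 with all libraries; at 5 DAF and in the interaction it gave 0, while the interaction calls over all features ran from 28 to 963.

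Over 24 settings, 1 of them the looser adjusted p limit on the same fit, SUS2 on 2A was called between stages in TAM111 in 12, SUS1 on 7A in TAM112 in 18, and SUS1 on 7B in TAM112 in 11. Directions that turned belonged to values that had not passed. Without both 5 DAF libraries numbered 3, the log2 fold change between cultivars at 5 DAF was -0.15 for 7A and -0.069 for 7B, that between stages in TAM111 was -0.0057 for 7B, and the interaction of 7D was 0.053. With library sizes alone, which moved the median of all features to 0.45 between cultivars at 14 DAF, to -0.18 between stages in TAM111 and to 0.29 in the interaction, 7A was 0.26 between cultivars at 14 DAF, 7B was -0.19 between stages in TAM111, and the interaction was 0.0088 for 7A and 0.15 for 7D. That scaling also changed the share of calls over all features that were higher, from 48.5% to 82.6%, from 56.0% to 41.8% and from 54.2% to 87.2% in these 3 comparisons. The block gave -0.054 for 7B between stages in TAM111. Leaving out 1 library gave -0.041 to 0.34 for 7A at 5 DAF, -0.39 to 0.10 for 7A at 14 DAF, -0.43 to 0.28 for 7B between stages in TAM111, -0.99 to 0.13 for 2A and -1.07 to 0.0498 for 2D between stages in TAM112, and -0.41 to 0.28 for the interaction of 7D. It also turned the cultivar difference of the SUS1 part of the 6 genes (-13.0 to 1.93 points) and of the SUS2 B share (-4.90 to 1.24 points).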
